A study of Anguilla anguilla with 24 samples.

Results

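The genes described here control cholesterol supply, uptake and disposal, and were followed as 9 contig labels in 2 tissues, brain and liver, of the European eel (Anguilla anguilla). Members were found by removing the leading letters Cit and any copy suffix from each contig name and keeping exact matches, which gave 18 of 50640 contigs and 9 of 42176 labels. The labels srebf2 (5 contigs), ldlr (3), nr1h4 (3) and stard4 (2) had several contigs, called copies here, and INSI1, abcg5, abcg8, nr0b2 and CH25H had 1 each. The gene names were picked from the sterol pathway with earlier gold-against-control values of these data in view, so those values are given below as a description, whereas liver against brain, the copy shares and the variation among eels within a group were tested. All 9 labels had a counterpart in RefSeq genes of this eel (assembly fAngAng1.pri), 6 by symbol, and the others as insig1 for INSI1, ldlrb for ldlr and nr0b2a for nr0b2.

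RNA sequencing was done on the brain and the liver of 12 eels, paired by the number in the sample titles, which gave 24 libraries. Eels 1 to 6 were controls and eels 7 to 12 took in gold nanoparticles with their food over 21 days, so that control brain, gold-fed brain, control liver and gold-fed liver held 6 libraries each. Strain, sex, age, dose and tank are not stated for any eel in the material at hand. The p-values cover the eel-to-eel spread within groups, and a tank shared by a feeding group could not be told apart from the gold. Values per eel are CPM, counts scaled to a common total, with TMM factors among the libraries of 1 tissue, so a CPM in liver and a CPM in brain are not on 1 scale.

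Cells keep their cholesterol within limits through SREBP2, the product of srebf2, a membrane-bound transcription factor that is cut free when sterols are scarce and then activates genes of cholesterol synthesis and uptake. INSIG1, named INSI1 in these labels, holds it back when sterols are plentiful, the LDL receptor takes up cholesterol-carrying lipoproteins, and STARD4 carries cholesterol between membranes inside the cell. Liver removes cholesterol by exporting it into bile through the half-transporters ABCG5 and ABCG8, which work as a pair, and by turning it into bile acids. The bile acid level is sensed by the nuclear receptor FXR (nr1h4), and SHP (nr0b2) is a target of FXR. CH25H, cholesterol 25-hydroxylase, makes an oxysterol that restrains SREBP2, and in mammals it is induced by interferon in macrophages. These roles are known mostly from mammals.

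Counted reads per library ran from 66.0 to 85.3 M (mega) in control brain, from 79.3 to 116 M in gold-fed brain, from 59.4 to 89.8 M in control liver and from 50.3 to 87.6 M in gold-fed liver. Tissue labels were checked with marker lists. Summed CPM of 16 hepatocyte labels was 36890 to 66947 in livers and 167 to 1000.4 in brains, and that of 16 neuron labels was 6019.7 to 7039 in brains and 19.1 to 27.5 in livers. Of the hepatocyte labels 15 were higher in liver in control eels and ttr was higher in brain, while all 16 neuron labels were higher in brain. The liver of gold-fed eel 11 stood apart for srebf2 and for sterol synthesis labels, so log2 fold changes that it moved by over 1.5 times are given with and without it.

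**Figure D1:**
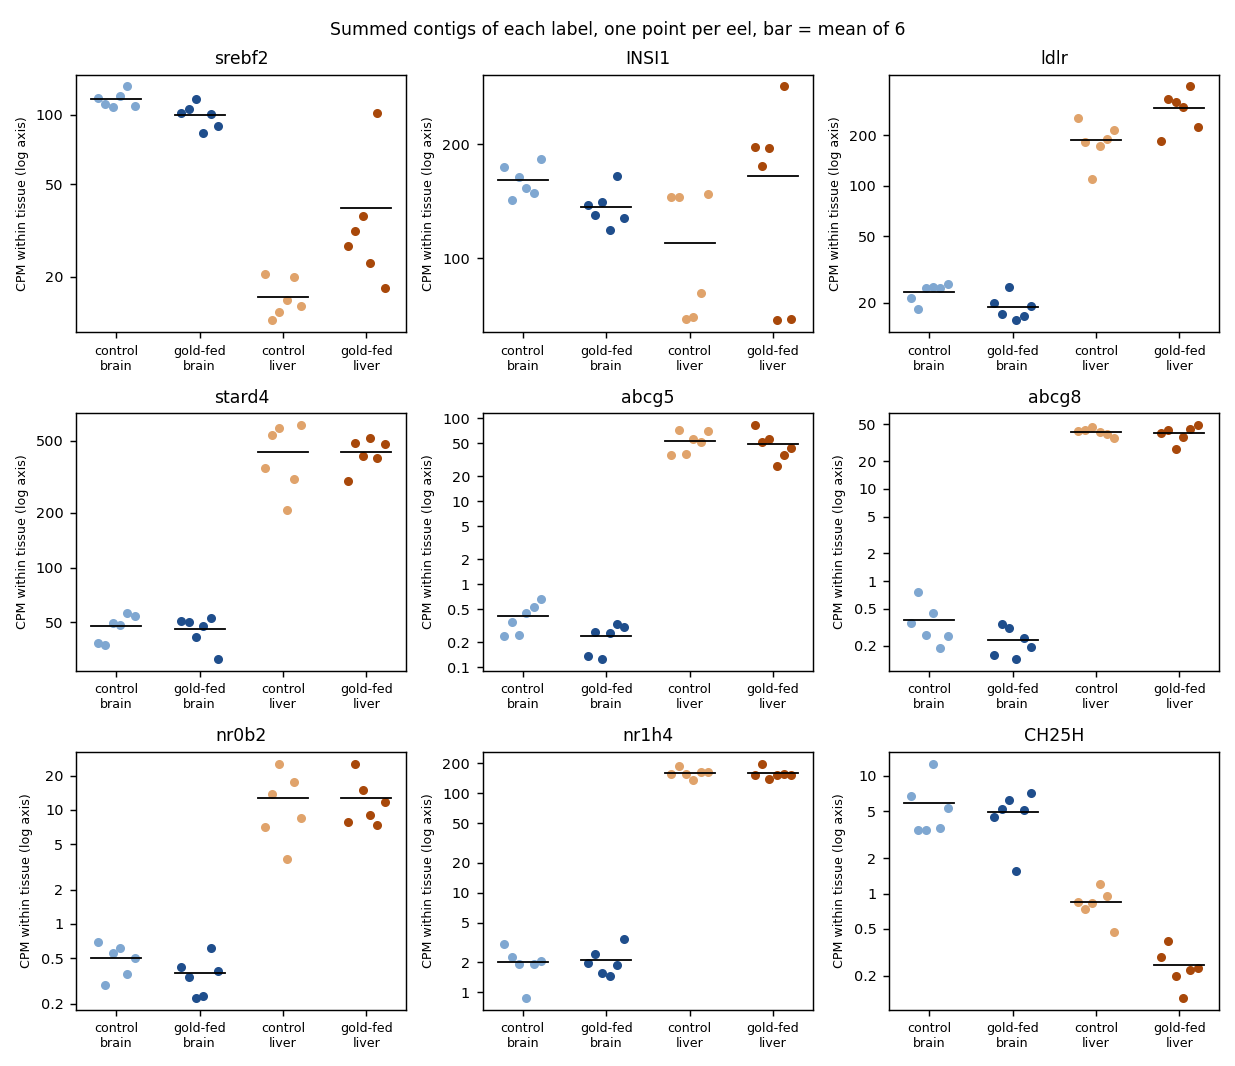
Level of each label (sum of its contigs) in CPM scaled within tissue, on a log axis, with 1 point per eel and a bar at the mean of 6 eels per group. Livers and brains are not on 1 scale here, so groups are compared within a tissue. A gold-fed liver stands at 101 CPM for srebf2, and the gold-fed livers lie below the control livers for CH25H.

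The regulators srebf2 and INSI1 were detected in every library of both tissues. Label srebf2 had 107 to 133 CPM in control brains (median 115) and 83.4 to 116 CPM in gold-fed brains (median 101). In livers it had 12.96 to 20.6 CPM in controls (median 15.3) and 17.9 to 101 CPM in gold-fed eels (median 29.3). The gold-fed and control groups overlapped in both tissues, and eel 11 was the only liver above 36.6 CPM. With TMM scaling over both tissues, srebf2 was lower in liver than in brain in control eels (log2 fold change -0.71, SE 0.13, edgeR quasi-likelihood test, Benjamini-Hochberg adjusted p = 2.08e-04). In gold-fed eels its log2 fold change was 0.74 (SE 0.35, edgeR adjusted p = 0.0729), or 0.20 without the liver of eel 11. With library totals as the scaling it was -1.30 and passed as lower in liver (edgeR adjusted p = 0.00307). These fits did not pair the tissues by eel. With the eel as a block the gold-fed value was 0.47 (edgeR adjusted p = 0.138).

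INSI1, the SREBP2 anchor, separated the livers more than the brains. Its brain level was 143 to 182 CPM in controls (median 158) and 119 to 165 CPM in gold-fed eels (median 135). In livers it was 69.4 to 147 CPM in controls (median 113) and 68.7 to 284 CPM in gold-fed eels (median 185). Livers of eels 3, 4, 5, 10 and 12 had at most 81.1 CPM and the other livers at least 145 CPM, so low and high livers occurred in both groups. INSI1 was higher in liver than in brain in control eels (log2 fold change 1.58, SE 0.22, edgeR adjusted p = 1.32e-05) and in gold-fed eels (2.35, SE 0.33, edgeR adjusted p = 1.72e-05), but this direction depended on the scaling. Library totals gave -0.63 in control eels, which passed in the opposite direction, and 0.30 in gold-fed eels, which did not pass.

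The LDL receptor label ldlr was detected in every library of both tissues and was higher in liver with TMM scaling. It had 18.4 to 26.0 CPM in control brains (median 24.5) and 15.8 to 24.9 CPM in gold-fed brains (median 18.2). Control livers had 110.2 to 253 CPM (median 185) and gold-fed livers 184 to 392 CPM (median 306). The 2 liver groups overlapped, and the highest liver was that of eel 11. The log2 fold change of liver over brain was 5.13 (SE 0.21, edgeR adjusted p = 2.81e-11) in control eels and 6.01 (SE 0.23, edgeR adjusted p = 3.23e-11) in gold-fed eels.

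STARD4, the cytosolic sterol carrier, was also higher in liver. Its label had 37.4 to 56.3 CPM in control brains (median 49.0) and 31.3 to 52.7 CPM in gold-fed brains (median 48.9), and the groups overlapped throughout. Control livers had 208 to 609 CPM (median 445) and gold-fed livers 298 to 516 CPM (median 446), so the medians nearly coincided and the control livers spread more widely. Liver over brain gave a log2 fold change of 5.33 (SE 0.30, edgeR adjusted p = 8.92e-10) in control eels and 5.31 (SE 0.20, edgeR adjusted p = 2.65e-11) in gold-fed eels.

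The export pair abcg5 and abcg8 showed the largest tissue differences among the 9 labels. In livers abcg5 had 35.8 to 72.6 CPM in controls (median 53.6) and 26.5 to 82.9 CPM in gold-fed eels (median 47.8). Its partner abcg8 had 35.8 to 47.5 CPM in control livers (median 42.4) and 27.4 to 49.2 CPM in gold-fed livers (median 42.2). Control and gold-fed livers overlapped for both transporters. In brains abcg5 had 10 to 55 reads and abcg8 11 to 66 reads per library, below 1 CPM in each. The log2 fold change of liver over brain was 9.15 (SE 0.36) for abcg5 and 8.90 (SE 0.36) for abcg8 in control eels, and 9.77 (SE 0.41) and 9.51 (SE 0.30) in gold-fed eels, with edgeR adjusted p between 5.56e-12 and 9.15e-11. In the RefSeq assembly abcg5 and abcg8 lie on the same chromosome with 0 protein-coding genes between them. The coefficient of variation among control livers was 29.2% for abcg5 and 9.52% for abcg8.

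The bile acid receptor nr1h4 was among the steadiest members in liver. Control livers had 134 to 189 CPM (median 160.2) and gold-fed livers 139 to 197 CPM (median 154), overlapping over nearly their whole range. Brains had 0.877 to 3.05 CPM in controls and 1.45 to 3.46 CPM in gold-fed eels. Its target nr0b2 varied far more, with 3.73 to 25.1 CPM in control livers (median 11.2) and 7.44 to 25.3 CPM in gold-fed livers (median 10.5). The lowest control liver for nr0b2 was that of eel 4 and the highest that of eel 3, and the ratio of highest to lowest was 6.75 among control livers, against 1.41 for nr1h4. In brains nr0b2 had 18 to 70 reads per library. Both labels were higher in liver, with log2 fold changes in control and gold-fed eels of 8.44 (SE 0.29) and 8.30 (SE 0.27) for nr1h4 and of 6.78 (SE 0.49) and 7.16 (SE 0.42) for nr0b2, with edgeR adjusted p of at most 1.47e-08.

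CH25H had few reads in liver. Control livers had 0.472 to 1.20 CPM (median 0.840), from 25 to 126 reads per library, and gold-fed livers had 0.130 to 0.396 CPM (median 0.229), from 9 to 32 reads. Every gold-fed liver was below every control liver. Brains had 3.44 to 12.6 CPM in controls (median 4.48) and 1.54 to 7.14 CPM in gold-fed eels (median 5.16), and these groups overlapped. Liver over brain gave a log2 fold change of -0.67 in control eels (SE 0.34, edgeR adjusted p = 0.0936), -0.29 without the brain of control eel 4, and -2.80 with library totals, which passed. In gold-fed eels CH25H was lower in liver than in brain (log2 fold change -2.24, SE 0.37, edgeR adjusted p = 7.76e-05; -4.29 with library totals).

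Across the 9 labels, 7 were higher in liver and srebf2 was lower in control eels, beside 75.6% of all 41354 labels tested that passed in either direction. Labels that passed as higher in liver were 35.2% of all tested. In gold-fed eels 7 were again higher, CH25H was lower and srebf2 did not pass, beside 73.5% of all labels. By contig, 14 of 18 were higher and 2 lower in liver in control eels (75.1% of all contigs passed), and 14 higher and 1 lower in gold-fed eels (73%). In each set of eels 8 of 9 labels also passed in DESeq2, beside 77.5% and 75.9% of all labels. Scaling between the tissues changed these values. TMM factors were 1.99 to 2.17 for brains and 0.424 to 0.567 for livers, and library totals shifted the median log2 fold change of all labels by -2.16 in control eels and by -2.02 in gold-fed eels. With library totals 9 and 8 of the labels passed, beside 89.2% and 88.3% of all labels. In order of size in control eels the labels ran abcg5, abcg8, nr1h4, nr0b2, stard4, ldlr, INSI1, CH25H and srebf2. Neighbours abcg5 and abcg8, stard4 and ldlr, and CH25H and srebf2 differed by less than their standard errors.

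**Figure D2:**
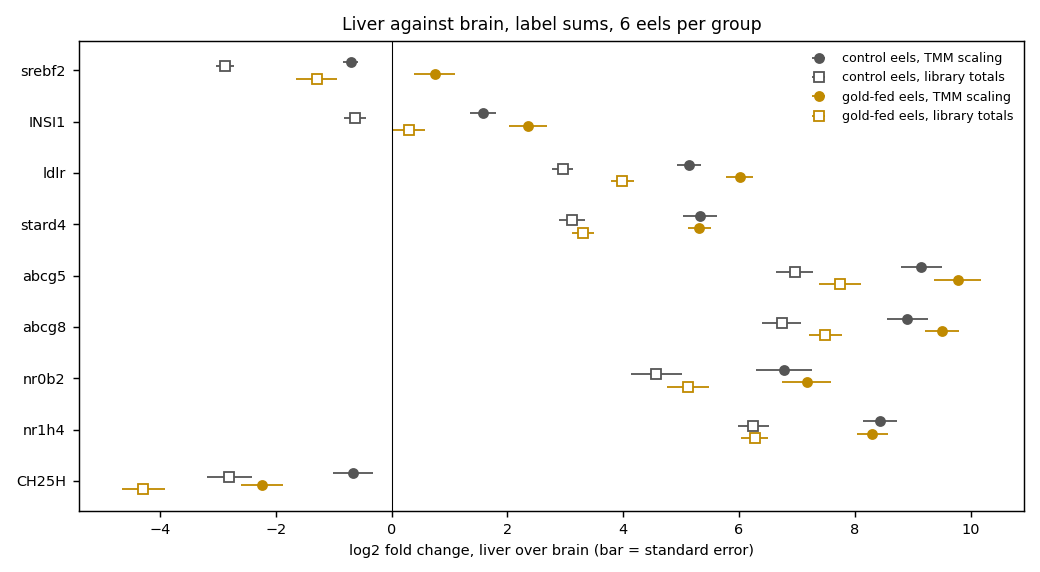
Log2 fold change of liver over brain for each label, with bars of 1 standard error, in control eels (grey) and gold-fed eels (yellow), using TMM scaling (filled circles) or library totals (open squares). The labels other than srebf2 and CH25H lie above 0 with TMM scaling in both sets of eels, and INSI1 crosses 0 in control eels under library totals.

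The shares of the copies within a label differed between liver and brain, and for ldlr the copy with most reads differed too. Shares of copies within a label do not depend on the scaling between tissues, but they depend on contig length, which the files do not give, so only the change of a share between tissues is read. Among 12 eels, stard4.1.2 held 98.9% ± 0.766 (SD) of stard4 reads in liver and 55.7% ± 2.41 in brain. Copy stard4.2.2 held the rest, so brain reads fell on both copies and liver reads almost wholly on stard4.1.2. By contig stard4.1.2 was higher in liver (log2 fold change 6.17 in control and 6.10 in gold-fed eels), and stard4.2.2 had -0.56 (edgeR adjusted p = 0.0281) and 0.14, or -0.18 in gold-fed eels without the liver of eel 11.

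The order of the ldlr copies by reads differed between the tissues. Copy ldlr.1.3 held 75.0% ± 7.10 of ldlr reads in brain and 12.1% ± 4.59 in liver, and it was the lower share in liver in all 12 eels. Copies ldlr.2.3 and ldlr.3.3 held 11.2% ± 3.28 and 13.8% ± 4.73 in brain but 38.3% ± 9.82 and 49.7% ± 9.87 in liver. All 3 copies were higher in liver, with log2 fold changes of 2.75, 6.90 and 7.09 in control eels and 3.02, 7.81 and 7.75 in gold-fed eels.

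For srebf2 a single copy held the largest mean share of reads in both tissues, but a smaller one in liver. Copy srebf2.2.5 held 85.1% ± 2.49 of srebf2 reads in brain and 53.3% ± 7.42 in liver. Copy srebf2.5.5 went the other way, with 6.13% ± 1.01 in brain and 29.9% ± 5.61 in liver, as did srebf2.3.5 (1.46% and 7.58%) and srebf2.1.5 (0.388% and 1.80%). Copy srebf2.4.5 held 6.96% in brain and 7.47% in liver, which did not pass (adjusted p = 0.206, exact sign-flip permutation test over 12 eels). By contig in control eels, srebf2.2.5 was lower in liver (log2 fold change -1.41) while srebf2.1.5, srebf2.3.5 and srebf2.5.5 were higher (1.45, 1.65 and 1.52). Under library totals the latter gave -0.68, -0.49 and -0.63. There srebf2.1.5 and srebf2.5.5 passed as lower in liver (edgeR adjusted p = 0.0465 and 0.00703), and srebf2.3.5 did not pass.

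Within nr1h4 the copy nr1h4.2.3 held 85.0% ± 5.27 of reads in brain and 67.9% ± 5.00 in liver, and nr1h4.3.3 held 14.1% ± 5.50 in brain and 29.3% ± 3.77 in liver. Copy nr1h4.1.3 had 0 to 7 reads per brain library and 102 to 502 reads per liver library, so its share in brain rests on few reads. In all, 12 shares were tested with a two-sided exact sign-flip permutation test over 12 eels and 11 passed after Benjamini-Hochberg adjustment. A fall in 1 share of a label forces a rise in others, so these are not separate results. Labels outside the members were not tested this way, so how common such shifts are is not known. Adjusted p was 5.86e-04 for 10 of them, from the smallest p the test can give (4.88e-04), with the difference in 1 direction in every eel. For nr1h4.1.3 it was 0.00107, with a higher share in liver in 11 of 12 eels. The sources used here do not say whether the copies are separate genes, alleles or parts of 1 transcript.

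**Figure D3:**
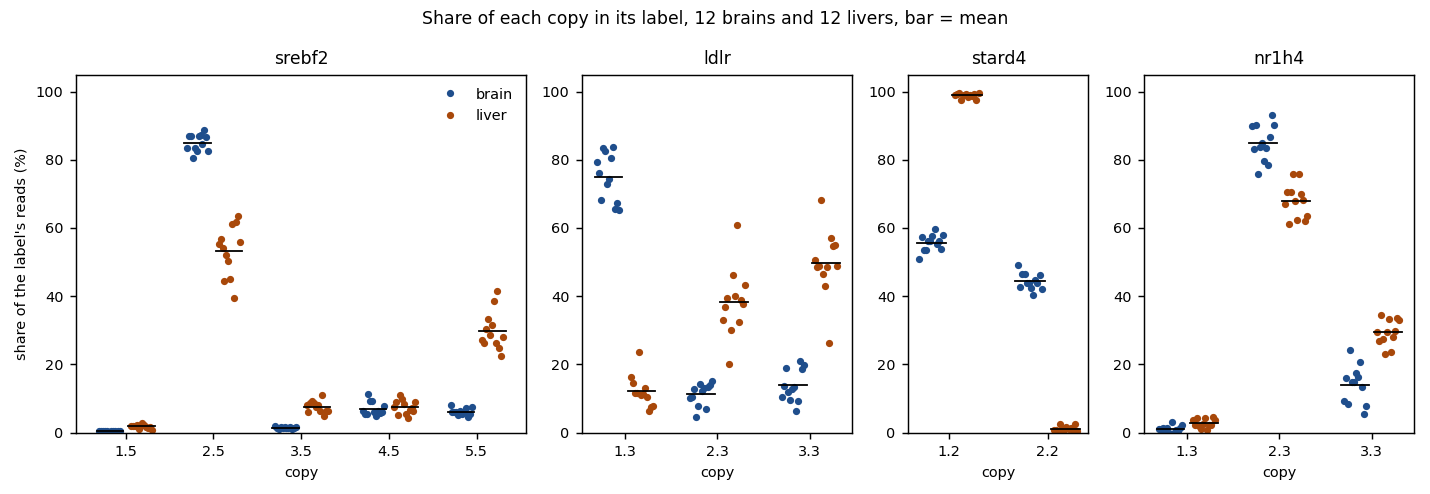
Share of each copy in the reads of its label, in percent, with 1 point per library (12 brains in blue, 12 livers in orange) and a bar at the mean. Copy ldlr.1.3 falls from 75.0% in brain to 12.1% in liver, and stard4.1.2 stands at 55.7% and 98.9%.

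Gold-fed and control livers differed most, among the members, in CH25H, srebf2, ldlr and INSI1. As a description, the log2 fold change of gold-fed over control liver was -1.77 (SE 0.30) for CH25H, 1.27 (SE 0.37) for srebf2, 0.63 (SE 0.23) for ldlr and 0.59 (SE 0.36) for INSI1. Without the liver of gold-fed eel 11, srebf2 came to 0.73 and INSI1 to 0.36. The transporters, both bile acid regulators and stard4 lay between -0.12 (abcg5) and 0.00 (nr0b2). Leaving out 1 liver took abcg5 to -0.32 (without gold-fed eel 7) and nr0b2 to -0.30 (without gold-fed eel 8) or 0.33 (without control eel 3). None of the 9 labels and none of the 18 contigs passed the adjusted threshold in edgeR, beside 0% of all labels and all contigs, and 3 labels had an unadjusted p under 0.05, beside 8.48% of all labels. DESeq2 called 1 label, CH25H (adjusted p = 3.85e-05), beside 0.676% of all labels, and limma-voom called none. With all 24 libraries in 1 edgeR fit, CH25H and srebf2 passed, beside 0.519% of all labels. Of the contigs, CH25H and srebf2.5.5 passed, beside 0.454% of all contigs. That fit took 1 spread per label over both tissues and left the tissues of an eel unpaired. For srebf2 the coefficient of variation was 78.4% in gold-fed and 19.3% in control livers. In gold-fed and control brains it was 11.8% and 8.02%. CH25H was the only label whose liver groups did not overlap, beside 0.248% of all labels that were lower in every gold-fed liver. Since the members were chosen with this contrast in view, nothing is read from these counts.

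Values of gold-fed and control livers are given here for the copies of ldlr and stard4, as a description. Copy ldlr.2.3 had 34.7 to 99.5 CPM in control livers (median 61.8) and 74.0 to 199 CPM in gold-fed livers (median 109), with eel 8 highest. Copy ldlr.3.3 had 53.9 to 128 CPM (median 90.3) and 85.5 to 215 CPM (median 135), with eel 11 highest. Copy ldlr.1.3, the copy with most reads in brain, had 12.9 to 44.4 CPM (median 24.9) and 17.6 to 42.8 CPM (median 25.0). Their log2 fold changes were 0.93 (SE 0.29), 0.57 (SE 0.28) and -0.05 (SE 0.31), and the differences between copies were not tested. For stard4 the copy with fewer liver reads, stard4.2.2, had 1.77 to 5.15 CPM in controls and 1.69 to 10.4 CPM in gold-fed eels, with eel 11 highest. Its log2 fold change was 0.64 (SE 0.37), or 0.31 without eel 11, and stard4.1.2 had -0.01 (SE 0.27).

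All 5 srebf2 copies had positive values in gold-fed livers, and eel 11 was the highest liver for each. Copy srebf2.2.5 had 7.02 to 11.4 CPM in control livers (median 7.52) and 9.97 to 64.3 CPM in gold-fed livers (median 14.3). Copy srebf2.5.5 had 3.41 to 5.68 CPM (median 4.98) and 4.99 to 22.7 CPM (median 9.35). The groups overlapped through eel 12 for srebf2.2.5 and through eels 10 and 12 for srebf2.5.5. The log2 fold changes were 1.39 (SE 0.42) for srebf2.2.5, 1.22 (SE 0.34) for srebf2.5.5, 1.16 for srebf2.1.5, 1.09 for srebf2.3.5 and 0.83 for srebf2.4.5. Without the liver of eel 11, srebf2.2.5 came to 0.72, srebf2.1.5 to 0.72, srebf2.3.5 to 0.66 and srebf2.4.5 to 0.28.

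**Figure D4:**
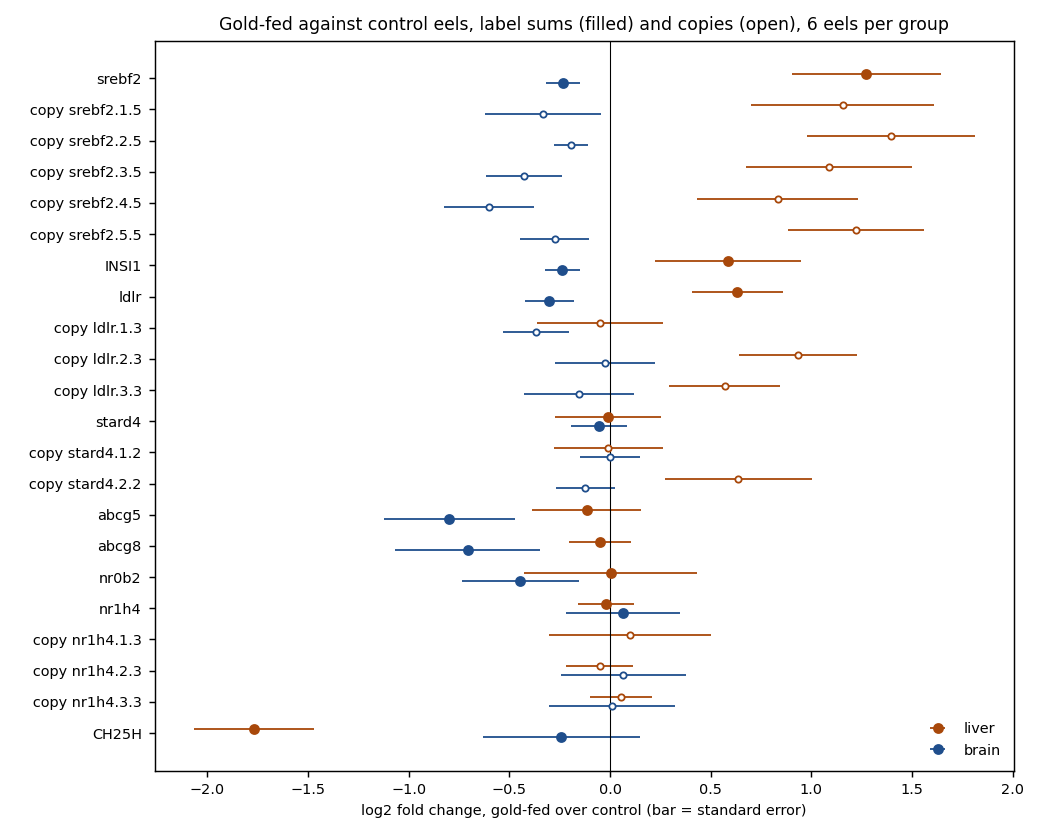
Log2 fold change of gold-fed over control eels with bars of 1 standard error, for label sums (filled) and copies (open), in liver (orange) and brain (blue). In liver the srebf2 copies, ldlr.2.3 and ldlr.3.3 lie above 0 and CH25H at -1.77, while in brain most points lie at or below 0.

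In brain 8 of the 9 labels had negative values, beside 49.8% of all labels. Since the members were chosen with gold-against-control values in view, nothing is read from this count or from those below. The log2 fold change of gold-fed over control brain was -0.80 (SE 0.33) for abcg5, -0.71 (SE 0.36) for abcg8, -0.45 (SE 0.29) for nr0b2, -0.30 (SE 0.12) for ldlr, and -0.24, -0.24, -0.23 and -0.06 for CH25H, INSI1, srebf2 and stard4, with 0.07 for nr1h4. For abcg5, abcg8 and nr0b2 these rest on few reads, and without the brain of control eel 2 abcg8 came to -0.36. Signs near 0 turned when 1 brain was left out, with CH25H at 0.14 without control eel 4, stard4 at 0.04 without gold-fed eel 12 and nr1h4 at -0.12 without gold-fed eel 12. Control and gold-fed brains overlapped for every member. No label passed in edgeR, DESeq2 or limma-voom (0% of all labels passed in edgeR and 0.345% in DESeq2), and 4 labels had an unadjusted p under 0.05, beside 7.72% of all labels. Of the contigs, 17 of 18 had enough reads to be tested in brain, all but nr1h4.1.3, and 0 passed, beside 0.00201% of all contigs.

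The gold response of liver minus that of brain had its largest values in the same labels, as a log2 difference of 1.48 for srebf2 (SE 0.39), 0.90 for ldlr (SE 0.25), 0.79 for INSI1 (SE 0.39) and -1.56 for CH25H (SE 0.51). Without the liver of eel 11, srebf2 came to 0.97. Because the members were chosen with gold-against-control values in view, nothing is read from the counts that follow. None of the 9 labels passed in edgeR, DESeq2 or limma-voom (0.00714% of all labels passed in edgeR and 0.336% in DESeq2), 3 had an unadjusted p under 0.05, beside 7.22% of all labels, and 0 of 18 contigs passed, beside 0.00595% of all contigs.

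Marker labels of other cells are given beside the member values. Between gold-fed and control livers 0 leukocyte, 0 erythrocyte and 0 biliary and intestinal labels passed in edgeR, beside 0% of all labels. In brain 0 leukocyte labels passed, beside 0% of all labels, and the control and gold-fed ranges below overlapped. Summed CPM of 11 leukocyte labels was 102 to 148 in control livers and 68.1 to 133 in gold-fed livers, and 9 of the 10 labels tested had negative values there (median log2 fold change -0.79, beside 0.01 for all labels). CH25H is a gene of macrophages in mammals. Of the labels that macrophages share with other leukocytes, ptprc had -0.88, spi1 -0.82 and itgb2 -0.76, and the macrophage labels csf1r, cd68 and mpeg1 had -0.32, -0.05 and 0.09. In brain the list had 142 to 348 CPM in controls and 100.5 to 504 CPM in gold-fed eels. There 10 of 11 labels had positive values (median 0.41, beside 9.92e-04 for all labels), while CH25H had -0.24. The brain of gold-fed eel 10 was the lowest of its group for the list and for CH25H. The part of leukocytes in the CH25H values was not tested, and in bulk tissue fewer cells of a type and less RNA per cell cannot be told apart. The 4 biliary and intestinal labels had 16.4 to 57.1 CPM in control livers and 35.2 to 64.9 CPM in gold-fed livers. All 4 had positive values (median 0.82, beside 0.01 for all labels). Erythrocyte labels had 1117 to 4264 CPM and 459 to 2428 CPM, lowest in the liver of eel 11, and their part in the values of srebf2 was not tested.

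The sterol synthesis enzymes, which SREBP2 activates in mammals, gave the context for srebf2. Of 13 such labels, 12 had positive values in gold-fed livers, with a median log2 fold change of 0.89, beside 0.01 for all labels. In edgeR 0 of them passed, beside 0% of all labels. The summed level of the 13 labels was 121 to 286 CPM in control livers. It was 173 to 426 CPM in the livers of gold-fed eels other than eel 11, and 1349.7 CPM in that liver. The liver highest for srebf2 was thus also the highest for this list. Without it, an alternative chosen after seeing the data, 11 of 13 were positive with a median of 0.63. In brain 4 were positive and 9 negative (median -0.17), beside 49.8% of all labels that were negative. The brain of eel 10 was the lowest for both srebf2 (83.4 CPM) and the list (265 CPM). It was also the lowest of the 12 brains for the leukocyte (100.5 CPM), erythrocyte (460 CPM) and biliary and intestinal labels (66.3 CPM). Its low values were thus not particular to sterol genes.

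**Figure D5:**
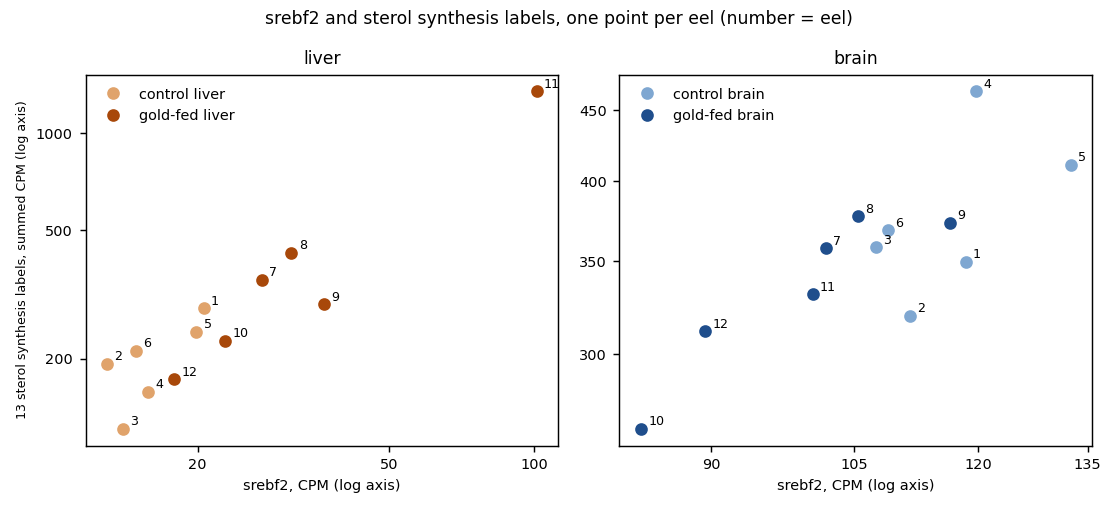
Level of srebf2 against the summed level of 13 sterol synthesis labels, in CPM scaled within tissue, on log axes, with 1 point per eel and its number beside it, in liver and in brain. The liver of gold-fed eel 11 lies at 101 CPM of srebf2 and 1349.7 CPM of the list, and the brain of gold-fed eel 10 is the lowest on both axes.

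Whether the members varied together among eels of the same group could not be settled with 12 livers and 12 brains. Over 12 livers, centred within control and gold-fed groups, srebf2 and INSI1 had Pearson r = 0.65 and Spearman rho = 0.55, srebf2 and ldlr had r = 0.59 and rho = 0.62, and nr1h4 and its target nr0b2 had r = 0.59 and rho = 0.55. The transporter partners abcg5 and abcg8 had r = -0.22 and rho = -0.26, and the negative pair farthest from 0 was stard4 with CH25H (r = -0.70, rho = -0.69). Of 36 pairs 0 passed in livers (smallest adjusted p = 0.479 for r, permutation within groups) and 0 of 36 in brains (smallest adjusted p = 0.778). Without the 2 livers farthest from the median of srebf2, those of eels 11 and 12, its r was 0.36 with INSI1 and 0.48 with ldlr.

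Between the liver and the brain of the same eel, INSI1 had r = 0.67 and rho = 0.69 (permutation p = 0.0252 and 0.0211, adjusted p = 0.227 and 0.106 over 9 labels), so 0 of 9 passed. Its r was 0.49 without eels 10 and 12, the farthest from the median, and 0.85 without eel 2, where the adjusted p was 0.0202. For nr1h4, srebf2 and nr0b2, r was 0.54, 0.45 and -0.47, and rho was 0.61, 0.64 and -0.62. Their adjusted p for r was 0.334, 0.450 and 0.334 (permutation within groups).

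The labels most like each member over the 12 livers were picked by Pearson r among 7560 named labels with at least 1 CPM in liver, as a description. For srebf2 they were ripk2 (r = 0.93), fdft1 (0.93) and idi1 (0.92). The genes fdft1, squalene synthase, and idi1, an isomerase of isoprenoid synthesis, belong to the sterol synthesis list. Without eel 11, an alternative chosen after seeing the data, these were 0.80, 0.68 and 0.77. For INSI1 the first label was lpin2 (0.92), for ldlr hectd3 (0.89), for stard4 SDA1 (0.87), for abcg5 fam98a (0.93), for abcg8 SNX17 (0.89), for nr0b2 golt1b (0.91), for nr1h4 coq3 (0.95) and for CH25H mn1 (0.93). The r of abcg8 with abcg5 was exceeded by 75.6% of the 22377 labels compared, and the r of INSI1 with srebf2 by 2.60%.

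Of 12 labels of other sterol regulators, 7 were higher and MYLIA was lower in liver in control eels (median log2 fold change 0.48, beside -0.12 for all labels), and 75.6% of all labels passed in either direction and 35.2% as higher in that comparison. Among those of smallest p were nr5a2 (5.87), a nuclear receptor of bile acid synthesis, srebf1 (3.87), the lipogenic relative of srebf2, and insig2 (2.83), the relative of INSI1. MYLIA, named for the ligase that marks the LDL receptor for destruction, had -1.06. With library totals 4 were higher and 8 lower, beside 89.2% of all labels that passed in either direction. The labels nr5a2, srebf1, insig2 and MYLIA kept their direction. In gold-fed eels 7 were higher and MYLIA (-0.79) was lower, beside 73.5% of all labels that passed in either direction.

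Of 11 other labels of uptake and trafficking, 6 were higher and 4 lower in liver in control eels (median 0.97), beside the same 75.6% of all labels. With library totals 2 were higher and 7 lower, beside 89.2% of all labels. Higher were apoe (7.49), the lipoprotein ligand of the LDL receptor, and the cholesterol carriers npc2 (2.65), STAR3 (1.65) and osbp (1.48). Under library totals STAR3 and osbp turned to -0.53 and -0.69. Lower were stard5 (-5.41) and star5 (-5.15), both named for a sterol carrier related to STARD4, the sterol exporter abcg4a (-4.45) and the reelin and lipoprotein receptor LRP8 (-3.59). In gold-fed eels 7 were higher and 4 lower, beside 73.5% of all labels, and npc1l1, a sterol uptake protein, had 4.05.

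Of 6 other bile acid labels, 5 were higher in liver and klb was lower in both sets of eels under both scalings. Of all labels, 75.6% and 73.5% passed with TMM scaling in control and gold-fed eels, and 89.2% and 88.3% with library totals. In control eels the bile acid synthesis enzymes akr1d1, hsd3b7 and amacr had log2 fold changes of 6.76, 4.94 and 4.16, and the transporter OSTA had 5.48. The co-receptor klb had -2.81. In gold-fed against control livers 0 labels of these 3 lists passed in edgeR, beside 0% of all labels. Medians were 0.11 for the regulators, -0.01 for uptake and trafficking and -0.23 for bile acids, beside 0.01 for all labels. In brain the medians were -0.01, 0.08 and -0.02, and 0 labels passed, beside 0% of all labels.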

How the data were processed

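RNA was extracted with a silica column kit and libraries were made with the TruSeq kit, per the labels' protocols. The authors deposited 1 table of counts for assembled contigs, which were raw, since values were whole and column totals differed. BWA 0.7.12 and SAMtools 1.1 are named in the submitters' processing notes. How contigs were assembled and reads counted, and any strandedness or sequencing batch, is not given in the sources used. It had 24 columns, and 0 belonged to no sample.

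Members and lists were chosen with earlier results of these data known. Contigs sharing a label were summed, and label sums and contigs were fitted separately over the whole table. Tests used edgeR 4.0.16 in R 4.3.3 (quasi-likelihood test with filterByExpr and TMM), and the threshold was a Benjamini-Hochberg adjusted p of 0.05. Standard errors came from the F values. Only the groups compared entered a fit, and the difference of the gold responses used all 24 libraries. The main fits had no term for the eel, so liver and brain of 1 eel entered them unpaired. Alternatives were library totals, DESeq2 1.42.0, limma-voom (limma 3.58.1), other count filters, all libraries in a fit, the eel as a block, and leaving out each library. The edgeR fit was tried on simulated counts of known change, and the correlations on planted and random values.

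Copy shares were compared with an exact sign-flip permutation test over 12 eels (4096 sign patterns). Correlations used log2(CPM + 0.5) centred within groups, with 100000 permutations within groups in Python 3.11.15 with scipy 1.17.1. Every member copy is accounted for. Of other lists, up to 4 labels per direction and comparison of smallest p that passed were named, and the 3 labels of highest r were sought for each member, of which the first is named for 8 members. One label that the rule would name is not reported here.

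Brain and liver with the same number in their titles were taken to come from the same eel. Their deviations from the group means correlated at r = 0.269 to 0.461 over 34681 labels. Brains and livers of unlike number were not compared, so this r does not test the pairing. No library was a duplicate: chi-square divided by its degrees of freedom was at least 69.4 for every replicate pair, counting labels of 20 or more summed reads. Reads without molecular identifiers are not independent molecules.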

Additional observations from a re-analysis of the deposited data

Results flagged for a closer look

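Of 88 groups of 6 eels examined for the labels and copies, 8 had an eel whose gap to its nearest neighbour exceeded the critical share of the range in Dixon's test. Independent normal values would give about 1 such group in 20. The CPM were not log-transformed and a label is not independent of its copies, so nothing is read from the count of 8. In gold-fed livers, eel 11 was at 101 CPM for srebf2 (other eels 17.9 to 36.6), at 64.3 CPM for its copy srebf2.2.5 (others 9.97 to 19.1) and at 6.42 CPM for srebf2.4.5 (others 1.31 to 2.41). The liver of gold-fed eel 8 was at 197 CPM for nr1h4 (others 139 to 157) and at 149 CPM for its copy nr1h4.2.3 (others 95.9 to 103). Among control brains, eel 4 was at 12.6 CPM for CH25H (others 3.44 to 6.68) and eel 1 at 9.57 CPM for srebf2.5.5 (others 6.42 to 7.12). The brain of gold-fed eel 10 was at 0.155 CPM for srebf2.1.5 (others 0.366 to 0.486), from 12 reads.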

How the results depend on the processing

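Counts of members that passed between liver and brain stayed within 1.5 times of those given, from 8 to 9 labels and from 15 to 18 contigs across the alternatives. With library totals, some log2 fold changes of liver over brain turned, as this scaling shifts all labels. In control eels they came to -0.63 for INSI1, -0.68 for srebf2.1.5, -0.49 for srebf2.3.5 and -0.63 for srebf2.5.5. In gold-fed eels they came to -1.30 for srebf2, -1.90 for srebf2.2.5, -1.24 for srebf2.4.5 and -1.89 for stard4.2.2. All of these passed as lower in liver, except srebf2.3.5 in control eels. In gold-fed eels limma-voom gave -0.20 for srebf2.2.5 and -0.054 for stard4.2.2, and leaving out 1 library gave -0.55 to 0.28 and -0.18 to 0.33, both negative without gold-fed liver 11 (srebf2.2.5 then passed). With the eel as replicate block they were -0.23 and -0.032, and srebf2.4.5 passed in control eels at -0.60 (edgeR adjusted p = 0.00874). The block changed no other call. In control eels srebf2.4.5 also passed in DESeq2, under library totals and when control brain 2 or 3 or control liver 4 or 5 was left out, and stard4.2.2 was lost without control brain 3, 5 or 6 and in the fit of all libraries. In gold-fed eels, leaving out 1 library gave 0.20 to 0.90 for srebf2 and 0.22 to 0.90 for srebf2.4.5, lowest without liver 11, the block 0.47 and 0.52, and limma-voom 0.49 and 0.52, and neither passed without liver 11, with the block or in limma-voom. There srebf2 passed as higher in liver without gold-fed liver 10 (0.87) or 12 (0.90) and in the fit of all libraries (0.77). Copy srebf2.4.5 passed as higher without liver 8 (0.90), in that fit (0.79) and with at least 1 CPM in 6 libraries (0.85). Copy srebf2.1.5 was lost with library totals (0.86). In gold-fed against control liver, DESeq2 called 1 label and 1 contig and the fit of all libraries 2 labels and 2 contigs, against 0, and leaving out 1 library gave 0 in each case. The share of nr1h4.1.3 did not pass in control eels alone (adjusted p = 0.0682, exact sign-flip permutation test, n = 6). The r of srebf2 with INSI1 in brains ran from -0.095 to 0.36 with 1 eel left out, negative without eel 10, and labels correlated between tissues of an eel numbered 0 to 1, INSI1 without eel 2. Causes were not tested. Depth limits abcg5, abcg8, nr0b2 and nr1h4.1.3 in brain and CH25H in liver.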
